A study of Mus musculus with 25 samples.

Results

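Trichostatin A (TSA) blocks zinc-dependent histone deacetylases, and the comparison described here asked which transcripts of cloned mouse embryos still differed after the drug had been taken away. Somatic cell nuclear transfer (SCNT) embryos that had received TSA alone were set against SCNT embryos that had received neither TSA nor an inhibitor of the histone methyltransferase G9a. The members were chosen by their labels, and they were 4 of the 25 libraries of the study, 2 with TSA and 2 controls. All 4 came from wild type embryos of BDF1 oocytes that had received the nucleus of a female BDF1 cumulus cell, the somatic cell that surrounds the oocyte. Both groups were activated in latrunculin A, which blocks actin polymerization, in place of the cytochalasin B used for other SCNT groups. TSA was given at 25 nM for the first 8 h. The embryos were collected at the late two-cell stage, 28 to 29 h after activation and therefore at least 20 h after the end of TSA, and 5 to 10 embryos were pooled per library. The other libraries used were SCNT embryos treated with the G9a inhibitors RK-701 (3 libraries) or A366 (2 libraries) at 1 µM for 24 h, the same with TSA added (2 libraries each), SCNT embryos made in cytochalasin B without treatment (2 libraries), and embryos fertilized in vitro (IVF, 4 libraries), which came from B6N oocytes and DBA/2 sperm. Their genome thus had the BDF1 background of the donor nuclei, whereas the strain of the oocyte differed. The statistical fit to all 25 libraries also held groups that were not compared here. They were SCNT embryos injected with mRNA of the histone demethylase Kdm3a or Kdm4d (2 libraries each). SCNT embryos given TSA with 1 µM of a further G9a inhibitor, UNC0638, for 24 h were the others (2 libraries).

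Histone deacetylases remove acetyl groups from histone tails. They work in the Sin3, NuRD, CoREST and NCoR complexes, which close chromatin and hold genes silent. When TSA occupies their catalytic zinc, acetylation builds up within hours and is lost again after the drug is washed out, so RNA sampled a cell cycle later shows what the treatment left behind. TSA is widely used in cloning because donor chromatin is poorly acetylated in the first cycles and activates part of the embryonic genome late or not at all.

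The 4 libraries held between 9259726 and 16604899 reads on genes, and mitochondrial transcripts took from 5.29% to 8.63% of them. All 9 markers of the two-cell embryo were above 1 CPM in each of the 4 libraries. Transcripts of 4 Y-linked genes had 0 to 11 reads in these libraries and 504 to 1748 in IVF libraries, as the female donors imply. No targeted transcript could check the treatment, because TSA acts on enzyme activity. On the log2(CPM + 1) scale of the 15691 genes with a mean above 1 CPM, the 2 controls were farther apart (Euclidean distance 100.7) than the 2 TSA libraries (75.6). Control replicate 1 was nearer to TSA replicate 2 (86.8) than to the other control, and control replicate 2 was nearer to TSA replicate 1 (84.2). The libraries thus did not separate by treatment over all genes. A lower value in these pools may mean fewer cells with the transcript or less RNA per cell, which cannot be told apart.

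Of the 25794 autosomal genes tested, 84 were called (0.326%), 43 higher (0.167%) and 41 lower (0.159%) with TSA. A call required an adjusted p under 0.05 in edgeR's quasi-likelihood test, fitted to all 25 libraries, and a fold change over 2. The median log2 fold change over all tested genes was −0.02. For all 84 genes the values of the groups did not overlap, which was also true of 32.8% of all tested genes (15.9% higher and 16.9% lower with TSA). The genes called lower had a median log2 fold change of −1.88 and those called higher one of 1.49. Protein-coding genes made up 35 of the 43 higher and 36 of the 41 lower genes, against 62.9% of all tested genes. The called genes were also more abundant, with a median of 23.4 CPM for the higher and 20.1 CPM for the lower ones. The median of all tested genes was 2.29 CPM, and the part of abundance in the coding share was not tested. The count of calls depended on single libraries. It was 14 without control replicate 1, 862 without control replicate 2, 13 without TSA replicate 1 and 77 without TSA replicate 2, and the fit of these 4 libraries alone called 2 genes, Slc1a1 and Tex101. The log2 fold change of each of the 84 genes kept its sign in all 4 fits that left out a library, but only 3 of the 84 were called in each of those 4 fits.

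**Figure D1:**
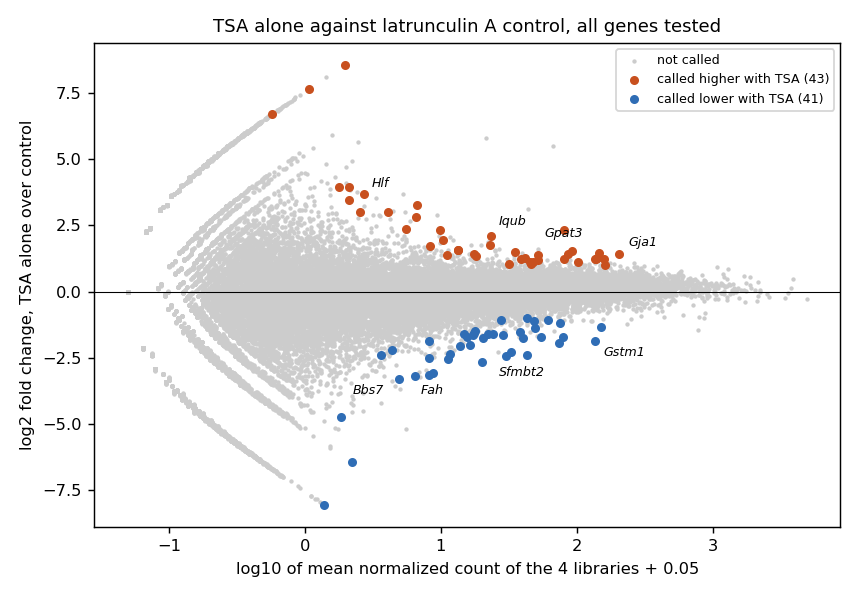
Log2 fold change of TSA alone over the latrunculin A control (vertical axis) against the log10 of the mean normalized count of the 4 libraries plus a small constant (horizontal axis) for the 25794 genes tested. Orange points are the 43 genes called higher and blue points the 41 called lower, and the grey cloud of uncalled genes widens toward low counts, so that called genes of small fold change lie at higher counts.

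The 3 genes called whichever library was left out were Iqub, Gpat3 and Bbs7. Iqub (chr6:24444865-24515067, minus strand, mm10) encodes an IQ motif and ubiquitin-like protein of motile cilia and sperm tails. Its normalized count (CPM after TMM scaling) was 9.92 and 7.54 in the controls and 38.6 and 37.7 with TSA. Both TSA libraries thus lay about 4-fold above both controls, with a log2 fold change of 2.12 ± 0.25 (SE) and the smallest adjusted p of the comparison, 0.000168. The fold change between the groups was 4.33. IVF libraries had 135 to 199 CPM, so the TSA libraries remained below the IVF range. Gpat3 (chr5:100845713-100899102, plus strand), an acyltransferase of the first step of triglyceride synthesis, had 79.7 and 75.9 CPM in the controls and 226 and 199 CPM with TSA. This was a log2 fold change of 1.45 ± 0.21 (adjusted p = 0.00185), and the TSA values were also above the IVF range of 138 to 160 CPM. Bbs7 (chr3:36573142-36613477, minus strand), a subunit of the BBSome that carries proteins into cilia, had 10.5 and 7.44 CPM in the controls and 0.929 and 0.871 CPM with TSA. Both TSA libraries were far under both controls, at 10 and 12 reads against 176 and 73, and the log2 fold change was −3.31 ± 0.48 (edgeR adjusted p = 0.00185). IVF libraries had 4.99 to 7.37 CPM, so the TSA values lay below the IVF range and the controls above it.

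The promoters of these genes and of Sfmbt2, the imprinted gene described below, are shown because their transcripts moved with the treatment. Each line gives the 250 bases before the start site in the RefSeq table of the GRCm38.p6 build, read 5′ to 3′ along the gene. Capitals mark the GC box GGGCGG, which Sp1 family proteins bind, and the CCAAT box, each searched on both strands.
Iqub (chr6:24515068-24515317, minus strand): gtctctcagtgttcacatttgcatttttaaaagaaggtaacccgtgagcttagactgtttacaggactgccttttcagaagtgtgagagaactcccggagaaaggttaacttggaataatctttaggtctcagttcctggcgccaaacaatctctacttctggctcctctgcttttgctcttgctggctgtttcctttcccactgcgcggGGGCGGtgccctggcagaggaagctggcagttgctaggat
Gpat3 (chr5:100845979-100846228, plus strand): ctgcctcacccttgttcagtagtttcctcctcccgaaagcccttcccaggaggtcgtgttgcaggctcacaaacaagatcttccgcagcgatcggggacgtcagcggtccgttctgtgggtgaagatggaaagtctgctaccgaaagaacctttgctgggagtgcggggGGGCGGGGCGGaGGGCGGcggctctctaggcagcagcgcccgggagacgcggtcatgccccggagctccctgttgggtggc
Bbs7 (chr3:36613390-36613639, minus strand): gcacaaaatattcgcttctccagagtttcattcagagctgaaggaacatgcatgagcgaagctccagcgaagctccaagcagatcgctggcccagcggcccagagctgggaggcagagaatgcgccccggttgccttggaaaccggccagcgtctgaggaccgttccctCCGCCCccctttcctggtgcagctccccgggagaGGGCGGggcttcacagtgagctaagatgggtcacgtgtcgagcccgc
Sfmbt2 (chr2:10370201-10370450, plus strand): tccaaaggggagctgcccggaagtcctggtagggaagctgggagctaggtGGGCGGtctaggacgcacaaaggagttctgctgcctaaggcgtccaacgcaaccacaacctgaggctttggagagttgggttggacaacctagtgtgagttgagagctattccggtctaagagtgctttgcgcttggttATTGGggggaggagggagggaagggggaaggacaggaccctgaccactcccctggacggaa

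The start sites of Gpat3 and Bbs7 in this table lie inside the gene spans given above, which come from the annotation used for counting, so these 2 windows overlap those spans. Upstream of the RefSeq start sites, the GC box occurred once for Iqub, 3 times for Gpat3 (with overlap between matches), 2 times for Bbs7 and once for Sfmbt2, whereas a CCAAT box stood only in the Sfmbt2 window among these 4. Of the 27025 promoters of the table, 32.9% held a GC box and 34.5% a CCAAT box in the same window. The matches describe letters only. The table held a promoter for 58 of the 84 called genes, which is too few for a comparison of base content between called and other genes.

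The called genes are described by their textbook roles, a grouping made after their values were seen and given without a test of any group. Among the higher genes, several encode transporters and proteins of the cell surface. Slc1a1, a glutamate and aspartate transporter, had 34.1 and 19.2 CPM in the controls and 134 and 136 CPM with TSA (log2 fold change 2.33 ± 0.44, edgeR adjusted p = 0.0166). Its TSA libraries also exceeded the IVF median of 52.5 CPM. Slco4c1, an organic anion transporter, rose from 35.5 and 57.5 CPM to 122 and 128 CPM (1.43 ± 0.25 on the log2 scale). Gja1, which encodes the gap junction protein connexin 43, rose from 123 and 99.3 CPM to 322 and 277 CPM (1.43 ± 0.24), well above its IVF range of 87.3 to 104 CPM. Slc30a1, a zinc exporter, and Slc52a2, a riboflavin transporter, rose by 1.27 and 1.33 on the log2 scale. Calcrl, the receptor for adrenomedullin and calcitonin gene-related peptide, had 3.26 ± 0.15 CPM (SD, n = 2) in the controls and 16.4 ± 6.54 CPM (SD, n = 2) with TSA.

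Enzymes and signalling proteins formed another part of the higher genes. Gldc, the glycine decarboxylase of mitochondria, rose from 47.0 ± 8.45 CPM (SD, n = 2) to 137 ± 12.3 CPM (SD, n = 2), a log2 fold change of 1.54 ± 0.27 (SE). Sgpp1, a phosphatase of sphingosine 1-phosphate, and Glce, an epimerase of heparan sulfate synthesis, rose by 1.23 and 1.24 on the log2 scale. Smad7, the inhibitory Smad of TGF-β signalling, had 59.0 and 110 CPM in the controls and 210 and 180 CPM with TSA (1.21 ± 0.24). Its groups did not overlap. The ubiquitin ligase subunit Fbxw7 rose by 1.39, and the small GTPase Rab39 by 1.78, on the log2 scale.

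Several genes of the embryo and the germline were also higher. Obox8, an oocyte-specific homeobox gene of a family that acts in zygotic genome activation, had 93.3 and 72.0 CPM in the controls and 135 and 249 CPM with TSA (log2 fold change 1.21 ± 0.27, adjusted p = 0.0384 in edgeR). The TSA libraries remained under the IVF range of 456 to 556 CPM. Among the coding genes, 3 with a single exon were called, namely Rpl10l, Rbm8a2 and Ddx28. They were 3 of the 35 higher coding genes (8.57%), beside 0 of the 36 lower ones and 3.27% of all tested coding genes. Rpl10l, the testis copy of a ribosomal protein gene, rose from 4.99 and 8.66 CPM to 17.3 and 22.4 CPM (1.56 ± 0.34), against 123 to 154 CPM in IVF libraries. Rbm8a2, an intronless relative of an exon junction protein, had 28.0 and 20.7 CPM in the controls and 42.1 and 75.4 CPM with TSA. Utp14b, a retrogene of ribosome assembly needed in spermatogenesis, had 106 and 107 CPM in the controls and 219 and 212 CPM with TSA. The libraries within each group lay close together, and the log2 fold change was 1.02 ± 0.17. With 1 library left out, the log2 fold change ranged from 0.66 to 1.59 for Obox8 and from 0.74 to 1.63 for Rbm8a2. It ranged from 1.19 to 1.99 for Rpl10l and from 0.99 to 1.02 for Utp14b. Utp14b lies within Acsl3 and Rbm8a2 within Pld5, each on the same strand, and read pairs that fell on more than 1 gene were not counted.

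Other higher genes had few reads in at least 1 control. Hlf and Ebf2, transcription factors of the circadian PAR bZIP and early B cell factor families, had 0.119 to 0.714 CPM in the controls and 2.79 to 5.52 CPM with TSA, over both genes. The sodium channel gene Scn3a rose from 0.356 and 0.306 CPM to 3.16 and 4.43 CPM, and the GABA receptor gene Gabbr2 from 2.67 and 0.408 CPM to 15.3 and 7.62 CPM. Fold changes at such levels rest on few reads. Without control replicate 2 the log2 fold changes of Hlf and Ebf2 were 5.27 and 4.91, and without control replicate 1 they were 2.78 and 3.22. Neither gene was called without control replicate 1 or without either TSA library. That of Gabbr2 was 4.78 without control replicate 1, 2.09 without control replicate 2 and 2.22 without TSA replicate 1, and it was called in neither of the last 2. The long noncoding RNA 4930562F17Rik had 0 reads in both controls and 2.32 and 1.74 CPM with TSA, at least 8.40-fold higher when each control was set at 3 reads. By the same bound Gm48582, which overlaps Dapk1 on the same strand, was at least 15.9-fold and Gm10244 at least 4.32-fold higher. Some of these changes depended on the choice of control. Against the cytochalasin B control the log2 fold change was 0.64 for Gm48582, 0.21 for Ebf2 and 1.20 for Hlf, none of them called. That of 4930562F17Rik was 7.64 against the same control, and it was called.

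**Figure D2:**
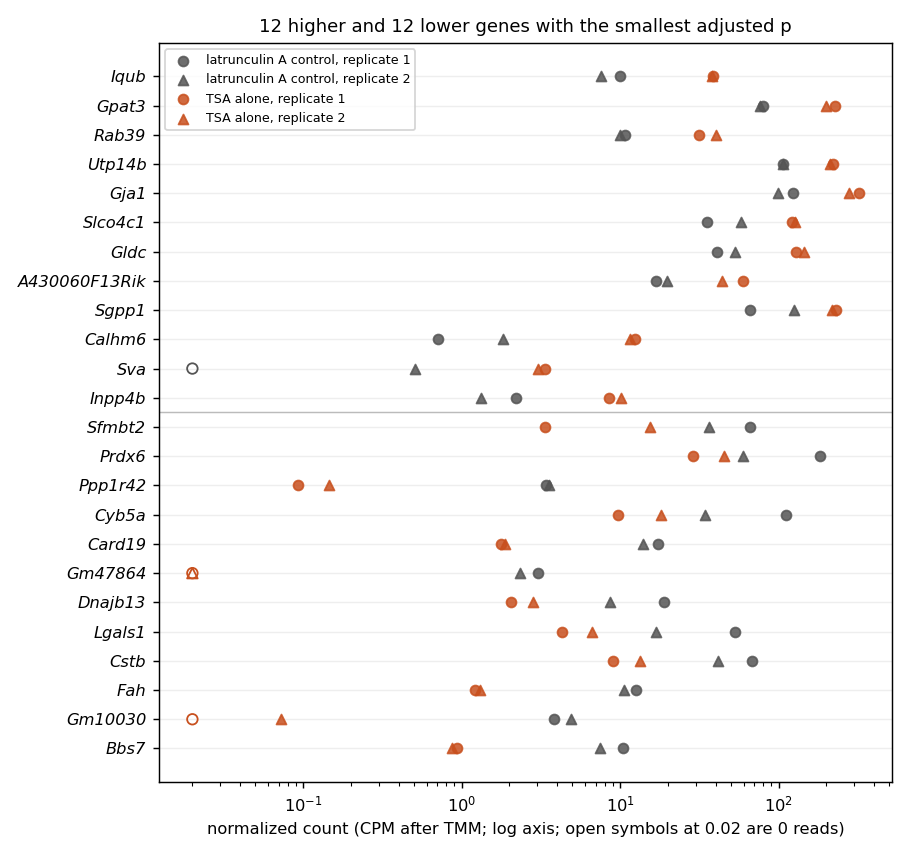
Normalized counts (CPM after TMM, log axis) in the 4 libraries for the 12 higher genes (upper rows) and 12 lower genes (lower rows) with the smallest adjusted p. Grey symbols are the controls and orange symbols the TSA libraries, with circles for replicate 1, triangles for replicate 2 and open symbols at the left edge for 0 reads. No gene's groups overlap, and for Sfmbt2, Prdx6, Cyb5a and Lgals1 control replicate 1 lies well above control replicate 2.

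The lower genes included several enzymes of detoxification and redox balance. Gstm1, a glutathione transferase, had 306 and 120 CPM in the controls and 36.2 and 79.2 CPM with TSA (log2 fold change −1.88 ± 0.40, edgeR adjusted p = 0.034). IVF libraries had only 1.50 to 4.47 CPM. Prdx6, a peroxiredoxin, fell from 183 and 59.8 CPM to 29.0 and 45.3 CPM (−1.71 ± 0.33), although IVF libraries had a median of 163 CPM. Txn1, which encodes thioredoxin, had 36.1 and 50.8 CPM in the controls and 13.2 and 14.7 CPM with TSA (−1.64 ± 0.34). The electron carrier Cyb5a fell by 2.39 on the log2 scale and the reductase Ptgr1 by 2.07. Fah, the last enzyme of tyrosine breakdown, had 12.5 and 10.6 CPM in the controls and 1.21 and 1.31 CPM with TSA. The log2 fold change of Fah was −3.19 ± 0.53 (adjusted p = 0.00772), and its IVF range was 2.61 to 5.16 CPM. Gstm1, Prdx6, Cyb5a and Ptgr1 were not called without control replicate 1 or without TSA replicate 1. Without control replicate 1 the log2 fold change was −0.68 for Prdx6, −1.06 for Gstm1, −1.30 for Cyb5a and −0.98 for Ptgr1. Without control replicate 2 it was −2.30 for Prdx6, −3.00 for Cyb5a and −2.67 for Ptgr1, and without TSA replicate 2 it was −2.61 for Gstm1.

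Stress regulators were among the lower genes as well. Ddit3, which encodes CHOP, a transcription factor of the unfolded protein response, had 31.2 and 13.4 CPM in the controls and 7.15 and 7.55 CPM with TSA (log2 fold change −1.61 ± 0.36). Sqstm1, the autophagy receptor p62, had 25.3 and 27.6 CPM in the controls and 11.1 and 7.84 CPM with TSA (−1.48 ± 0.32). The protease inhibitor gene Cstb fell by 2.28, the galectin gene Lgals1 by 2.66, the LIM protein gene Crip1 by 2.55 and the membrane linker gene Ezr by 2.02 on the log2 scale. Without control replicate 1 the log2 fold change was −0.86 for Ddit3 and −1.60 for Lgals1, neither called there or without TSA replicate 1, and without control replicate 2 that of Lgals1 was −3.26. That of Crip1 was −1.95 without TSA replicate 1, where it was not called, and −3.73 without TSA replicate 2.

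Bbs7 was accompanied by other genes of cilia and sperm. Dnajb13, a protein of the sperm axoneme, had 13.8 ± 7.28 CPM (SD, n = 2) in the controls and 2.44 ± 0.56 CPM (SD, n = 2) with TSA, and its groups did not overlap. Meig1, which is needed for the sperm manchette, had 18.2 and 11.3 CPM against 0.650 and 2.61 CPM (log2 fold change −3.15 ± 0.69), and its IVF median was 0.822 CPM. Without TSA replicate 1 the log2 fold change of Meig1 was −2.50, and without TSA replicate 2 it was −4.54. It was called neither without TSA replicate 1 nor without control replicate 1. That of Dnajb13 was −1.82 without control replicate 1, not called. Ppp1r42 had 3.39 and 3.57 CPM in the controls and only 1 to 2 reads in each TSA library. The ratio of its summed reads, scaled by library, was 28.3, with an exact 95% interval from 9.37 to 139 for counting error only. The higher gene Iqub is also a gene of cilia and sperm, so genes of this broad group were called in both directions.

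Sfmbt2 (chr2:10370510-10595253, plus strand), a Polycomb group gene expressed from the paternal allele, had 65.9 and 36.1 CPM in the controls and 3.34 and 15.3 CPM with TSA. Both TSA libraries were lower, by a log2 fold change of −2.44 ± 0.48 (edgeR adjusted p = 0.0223), and they stood nearer than the controls to the IVF range of 4.29 to 5.50 CPM. The log2 fold change was −1.74 without TSA replicate 1, where Sfmbt2 was not called, and −3.98 without TSA replicate 2. The homeobox gene Six4 had 98.3 and 68.8 CPM in the controls and 23.5 and 27.1 CPM with TSA, and its log2 fold change was −1.72 ± 0.34. The kinetochore genes Zwint and Cenpk fell by 1.20 and 1.01 on the log2 scale, and without control replicate 1 Zwint stood at −0.57 and was not called.

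The spread of the controls had a direction among the lower genes. Control replicate 1 exceeded control replicate 2 for 35 of the 41 lower genes, with a median log2 ratio of 0.67, and TSA replicate 2 exceeded TSA replicate 1 for all but 4 of them. Among the 43 higher genes control replicate 1 was the higher one for 16. Of the 41 lower genes, 1 (Bbs7) was called in all 4 fits that left out a library, as were 2 of the 43 higher genes. Nearest to the threshold inside it were Calcrl, Gm10244, Dis3l, Triqk and Pde4dip, with adjusted p from 0.0411 to 0.0493. Just outside lay E330014E10Rik, Tfam, Lin37, Gm27241 and Tpi1, with adjusted p from 0.0504 to 0.0514.

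The deacetylases that TSA inhibits are the first of 23 gene lists for which members could be tested, of which 8 had a called member. Of the 9 autosomal deacetylase genes tested, 0 were called by edgeR and 0 by DESeq2 on all libraries, and 0 had an unadjusted p under 0.05. Their median log2 fold change was −0.06, but 0.10 without TSA replicate 1 and −0.32 without TSA replicate 2. Hdac1, the most abundant, had 271 and 139 CPM in the controls and 153 and 220 CPM with TSA. The controls enclosed the TSA libraries, at a log2 fold change of −0.13 ± 0.28. Hdac2 had 74.7 and 114 CPM in the controls and 89.6 and 64.9 CPM with TSA (−0.29 ± 0.23). Per length of transcript Hdac1 (305 TPM in the controls) stood above Hdac2 (70.1 TPM), while Hdac3, Hdac4, Hdac9 and Hdac10 were each under 6 TPM. The X-linked Hdac6 and Hdac8, from the fit with sex chromosomes, had log2 fold changes of 0.19 and −0.07 and were not called.

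The partners of the deacetylases and genes known to respond to their inhibition were examined next. Of 28 tested subunits of deacetylase complexes, 0 were called by edgeR and 2 by DESeq2, in opposite directions. The median log2 fold change was 0.16, and 8 had an unadjusted p under 0.05. The most abundant, Gatad2a of NuRD and Rcor1 of CoREST, had log2 fold changes of 0.03 and 0.41. Acetyltransferases and bromodomain proteins had 0 of 16 called by edgeR and 0 by DESeq2 (median 0.04, 3 with an unadjusted p under 0.05). Genes that commonly respond to deacetylase inhibitors in cultured cells had 0 of 26 called by edgeR and 1 lower by DESeq2 (median 0.16, 9 with an unadjusted p under 0.05). The median was 0.07 without control replicate 2, with 1 member higher and 1 lower, and −0.22 without TSA replicate 2, with 2 lower. Cdkn1a, the cell cycle inhibitor p21 and the classic gene of this group, had 88.5 and 57.3 CPM in the controls and 67.7 and 98.3 CPM with TSA, and the ranges overlapped (log2 fold change 0.19 ± 0.27). The metallothionein gene Mt1 had a log2 fold change of 0.14. By comparison, the median over all genes was −0.02, and 3325 of the 25794 had an unadjusted p under 0.05.

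Genes of the two-cell state had 0 of 23 called by edgeR and 0 by DESeq2 (median log2 fold change 0.10, 3 with an unadjusted p under 0.05). The sign of this median depended on 1 library, at −0.23 without control replicate 2 and −0.63 without TSA replicate 2. Zscan4d, a marker of zygotic genome activation, had 11.9 and 5.61 CPM in the controls and 5.30 and 17.4 CPM with TSA, so that the TSA libraries enclosed the controls. Among 7 Obox genes 1 was called, Obox8, which was higher, while 0.167% of all tested genes were called higher. The median log2 fold change of the Obox genes was 0.18, but −0.10 without control replicate 2 and −0.30 without TSA replicate 2. It was 0.43 without control replicate 1 and 0.27 without TSA replicate 1. Obox3, another member, had 52.2 and 33.3 CPM in the controls and 31.9 and 65.3 CPM with TSA (0.18 ± 0.27). Regulators of pluripotency and the first lineages had 0 of 25 called by edgeR and 2 higher by DESeq2 (median 0.25, 8 with an unadjusted p under 0.05), but without control replicate 2 edgeR called 4 higher and the median was −0.03, and without TSA replicate 2 the median was 0.07. Transcripts stored in the oocyte had 0 of 27 called by edgeR and 0 by DESeq2 (median 0.05, 7 with an unadjusted p under 0.05). The median was negative in all 4 fits that left out a library, from −0.20 without TSA replicate 1 to −0.0023 without control replicate 1, with −0.18 without control replicate 2 and −0.13 without TSA replicate 2. Dppa3, the most abundant of them, had 4564 and 2622 CPM in the controls and 3218 and 4742 CPM with TSA.

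Cumulus genes were measured because they could mark carried-over donor RNA or donor genes that stayed active. Of 25 tested, 2 were higher, Gja1 and Amhr2, the latter the receptor for anti-Müllerian hormone, while 0.167% of all tested genes were called higher. DESeq2 on all libraries called 1 higher. The median log2 fold change of the list was 0.12, but −0.30 without TSA replicate 1 and −0.38 without TSA replicate 2. It was 0.14 without control replicate 1 and 0.10 without control replicate 2. With 1 library left out, the log2 fold change of Amhr2 ranged from 0.80 to 1.18. Amhr2 had 27.7 and 33.0 CPM in the controls and 70.8 and 52.8 CPM with TSA. The summed level of the list was 220 and 204 CPM in the controls and 451 and 385 CPM with TSA, most of it from these 2 genes. Without them the sum was 69.6 and 72.1 CPM in the controls and 59.0 and 54.9 CPM with TSA, so the other 23 genes together were not higher. Between 5 and 8 of the 25 were at 0 in each of the 4 libraries. A narrower set of 16 cumulus markers, of which 12 were tested and which holds Amhr2, summed to 70.2 and 79.2 CPM in the controls and to 98.6 and 82.2 CPM with TSA. Amhr2 alone rose by more than this sum did, so the rest of the narrower set together was not higher with TSA. The part of carried-over donor RNA in the changes of Gja1 and Amhr2 was not tested.

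**Figure D3:**
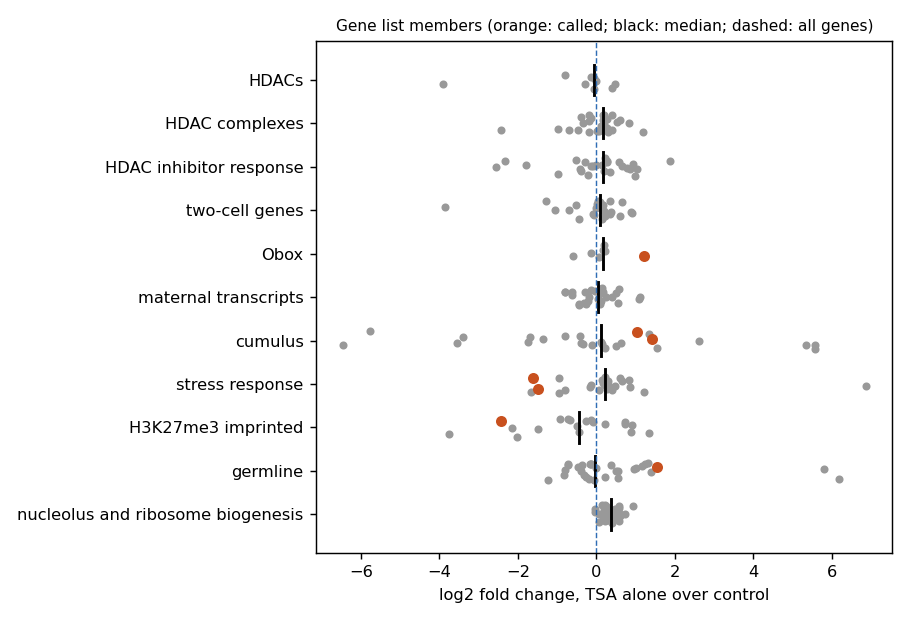
Log2 fold change of TSA alone over control for each tested member of 11 gene lists. Orange points are called members, black lines mark the median of a list, and the dashed line marks the median of all genes (−0.02); the ribosome biogenesis factors lie almost entirely to the right of it, with none called.

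Ribosome biogenesis factors of the nucleolus had small positive values. Of the 34 tested, 0 were called by edgeR and 0 by DESeq2, 32 had a positive log2 fold change, the median was 0.37, and 12 had an unadjusted p under 0.05. The number of positive values was 28 to 34 when any 1 library was left out. The nucleolar protein genes Npm1 and Ncl had log2 fold changes of 0.33 and 0.06. Among 75 ribosomal protein genes 69 were positive (median 0.25), and the germline member Rpl10l alone was called. Stress genes, a list of 25, had 2 lower members (Ddit3 and Sqstm1) and a median of 0.21. The median was 0.0069 without control replicate 2 and 0.05 without TSA replicate 2, and no member was called lower in 3 of the 4 fits that left out a library. Genes imprinted through H3K27me3 had 1 of 19 called, Sfmbt2, and a median of −0.43. This median was −0.11 without control replicate 1 and −0.24 without TSA replicate 1, and Sfmbt2 was called in neither of these fits. Slc38a4, another of them, had 15.8 and 7.95 CPM in the controls and 7.43 and 15.2 CPM with TSA (log2 fold change −0.07 ± 0.43). Of 33 tested genes imprinted through DNA methylation, 0 were called by edgeR and 2 lower by DESeq2 (9 with an unadjusted p under 0.05). Of 30 germline genes edgeR called 1, Rpl10l, and DESeq2 called 2 higher and 1 lower. The germline median was −0.03, but 0.47 without control replicate 1 and −0.12 without control replicate 2. It was 0.08 without TSA replicate 1 and −0.08 without TSA replicate 2. Of all tested genes, edgeR called 0.167% higher and 0.159% lower.

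The study's list of 879 genes that resist reprogramming in SCNT embryos was chosen in part on libraries of this series, so its direction is not independent evidence. It held 20 of the 43 higher genes, 46.5% of them and 2.28% of the list, and none of the lower genes, while 0.167% of all tested genes were called higher. The number depended on single libraries. Of the list, 4 were called higher without control replicate 1, 34 (with 9 lower) without control replicate 2, 8 without TSA replicate 1 and 13 (with 2 lower) without TSA replicate 2. DESeq2 called 42 higher and 4 lower, and the fit of the compared libraries alone called 1. Iqub, Rab39, Utp14b, Slco4c1 and Gldc led these 20 by adjusted p. Gpat3, Gja1, Sgpp1, Slc1a1 and Smad7 were not on the list, and in the gap between IVF embryos and cytochalasin B controls Gja1 and Smad7 differed by −0.02 and −0.03 on the log2 scale.

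The same agent was also given together with G9a inhibitors, in libraries that share none with the comparison above. Adding TSA to RK-701 gave 2646 calls (10.3% of the tested genes) and adding it to A366 gave 1231 (4.77%). Of the 84 genes, 75 had the same sign when TSA was added to RK-701 (89.3%, against 59.6% of all tested genes), and 39 were called in that direction with 0 in the other. These were 21 of the 43 higher genes, against 5.43% of all genes called higher with RK-701, and 18 of the 41 lower genes, against 4.83% called lower. With A366, 61 had the same sign (72.6%, against 51.9%), 14 were called in the same direction and 4 in the opposite one. Of all tested genes, 3.14% were called higher and 1.63% lower when TSA was added to A366. These shares depended on the control libraries. Without control replicate 2, of the 862 genes then called, 37.1% had the same sign with A366, and without TSA replicate 1 all 13 genes then called had the same sign with RK-701.

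Of the 84 genes, 13 were called in the same direction in all 3 comparisons. The 6 higher ones were Iqub, Gja1, Calcrl, Obox8, Rpl10l and Gm12735, a noncoding RNA that lies within Drg1 on the same strand in the annotation. Gja1 had 49.6 to 71.2 CPM in the 3 libraries with RK-701 alone and 269 and 472 CPM with TSA added. Its log2 fold change there was 2.59 ± 0.22, beside 1.43 ± 0.24 for TSA alone, and the difference missed the threshold (interaction 1.16 ± 0.32, edgeR adjusted p = 0.0502). Obox8 had 177 and 166 CPM with A366 alone and 553 and 536 CPM with TSA added, values within the IVF range. The 7 lower ones were Sfmbt2, Six4, Cyb5a, Ddit3, Icosl, Exo5 and Slc9b2. Sfmbt2 had 29.5 to 40.9 CPM with RK-701 alone and 5.52 and 5.91 CPM with TSA added (−2.64 ± 0.47), and 23.0 and 20.0 CPM with A366 alone against 6.91 and 3.49 CPM with TSA (−2.05 ± 0.49).

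**Figure D4:**
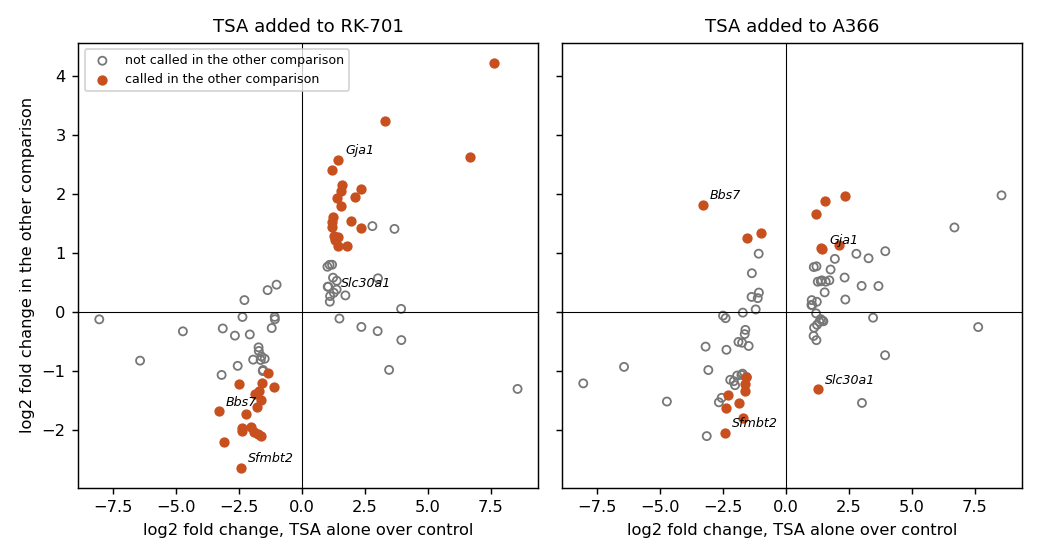
Log2 fold changes of the 84 genes called with TSA alone (horizontal axis) against their log2 fold changes when TSA was added to RK-701 (left) or A366 (right). Filled points were called in the other comparison; on the left all 39 filled points lie in the quadrants of equal sign, whereas on the right 4 of the 18, among them Bbs7 and Slc30a1, lie in the quadrants of opposite sign.

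Some of the 84 genes responded differently in the presence of a G9a inhibitor, by edgeR's test of the interaction. The difference was called for 13 of them with RK-701 and 22 with A366, against 2.15% and 1.84% of all tested genes (1.41% positive and 0.744% negative with RK-701, 1.29% positive and 0.551% negative with A366). The 84 had been selected for their response to TSA alone, whose libraries also enter the interaction. Bbs7 had 1.29 and 2.02 CPM with A366 alone and 7.62 and 4.24 CPM with TSA added, the opposite of its fall with TSA alone. Its interaction was 5.13 ± 0.65 on the log2 scale (adjusted p = 0.000186). Slc30a1 had 206 and 299 CPM with A366 alone and 100.0 and 104 CPM with TSA added. This interaction was −2.58 ± 0.36 (adjusted p = 0.000402). For Gpat3, A366 alone gave 161 and 118 CPM and A366 with TSA 104 and 150 CPM, and the groups overlapped (interaction −1.59 ± 0.29, adjusted p = 0.00592), whereas with RK-701 Gpat3 rose by 1.12 on the log2 scale.

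The gap between IVF embryos and SCNT embryos made in cytochalasin B, which also shares no library with the comparison, gives a scale for the direction of these changes. At this gap 3864 genes were called (15.0% of the tested genes, 6.91% higher and 8.07% lower in IVF embryos). Of the 84 genes, 64 moved toward the IVF level in sign (76.2%, against 52.8% of all tested genes), and 37 of these were called at the gap. The 3 genes called in the opposite direction were Cstb, Cenpk and Gm47864, each lower with TSA and higher in IVF embryos. Cstb had 68.0 and 41.6 CPM in the controls, 9.01 and 13.4 CPM with TSA and 101 to 130 CPM in IVF embryos, so that TSA libraries were farther from the IVF level than the controls. Iqub covered part of its gap, as described above. Meig1 and Sfmbt2, both lower with TSA, were lower in IVF embryos by 4.08 and 3.39 on the log2 scale.

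On the X chromosome 9 of 1010 tested genes were called (0.891%), 5 higher and 4 lower, in a fit that included the sex chromosomes. That fit called 94 of 26817 genes in all, and the fit of autosomal genes alone called 0.326%. Fits without 1 library were not run for X-linked genes. Fmr1nb, a gene of the testis, had 8.98 and 1.38 CPM in the controls and 37.2 and 24.3 CPM with TSA (log2 fold change 2.50 ± 0.49), against 93.8 to 108 CPM in IVF embryos. The transporter gene Slc10a3 had 39.5 and 42.0 CPM in the controls and 92.1 and 94.3 CPM with TSA (1.19 ± 0.20, edgeR adjusted p = 0.00856), and it had the smallest adjusted p of the X chromosome. Mcf2, 8030474K03Rik and Ube2dnl1 were also higher. Tceal9 fell from a mean of 76.0 CPM to a mean of 14.2 CPM (−2.42 ± 0.48), and E330016L19Rik, Cetn2 and Gm7173 fell with it. Xist, the RNA that silences an X chromosome, had 45.3 and 78.1 CPM in the controls and 97.8 and 58.6 CPM with TSA. The groups overlapped (0.34 ± 0.43, adjusted p = 0.793), and the 4 IVF libraries had at most 1.32 CPM.

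Of the 84 genes, 38 overlapped another annotated gene and 32 a gene on the other strand, and the counting did not use strand. Lrrc28 and Gm32983 overlapped each other, as did Eri2 and Rexo5, and all 4 were lower. Read pairs that fell on more than 1 gene were not counted, and whether the 2 calls of a pair are independent was not tested. Without control replicate 1 the log2 fold changes of these 4 genes were −0.30 for Lrrc28, −0.73 for Gm32983, −0.59 for Eri2 and −1.01 for Rexo5. None of the 4 was called in that fit or without TSA replicate 1. Only uniquely placed reads were counted. The processed pseudogenes and gene copies among the 84, such as Rpl9-ps2, Gm13360 and Rbm8a2, could thus lack reads that also match their relatives.

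**Figure D5:**
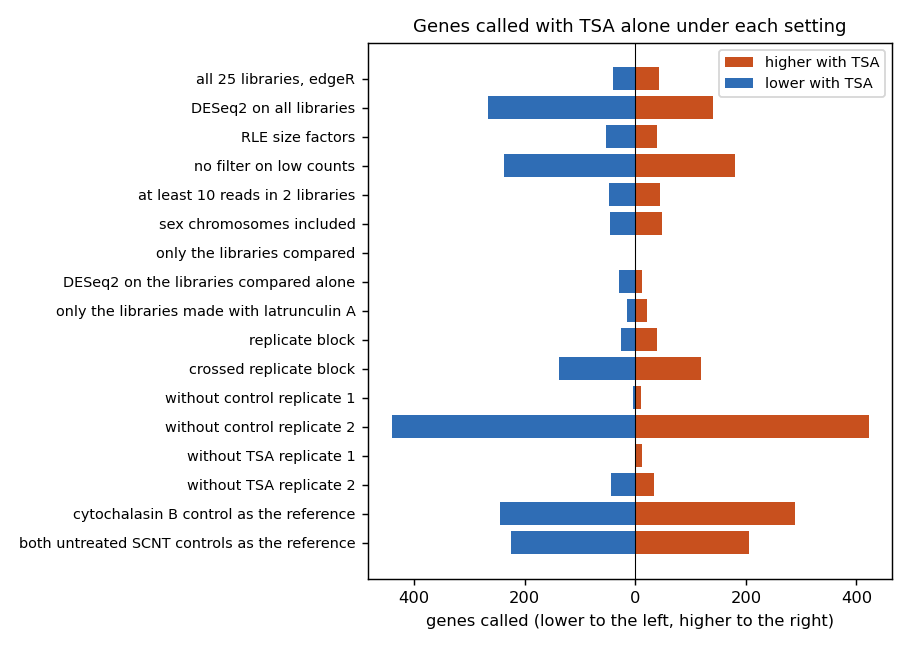
Number of genes called lower (to the left, blue) and higher (to the right, orange) with TSA alone under the fit used here (top bar, 84 genes) and under each alternative. The count fell to 2 in the fit of the 4 libraries alone and rose to 862 without control replicate 2.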

How the data were processed

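RNA was measured by sequencing of poly(A)-selected SMART-Seq HT libraries. The deposited table holds raw read counts per gene, which the authors made by trimming read pairs with Trimmomatic, aligning them to mm10 with STAR and counting uniquely placed pairs with featureCounts without strand. Rows for repeats were not used. The vehicle of the TSA control is not given in the sources used here.

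Counts were fitted with edgeR 4.0.16 (R 4.3.3), with 1 term per group over all 25 libraries and TMM scaling. The quasi-likelihood test was run on autosomal genes that averaged 1 read or more per library, with Benjamini-Hochberg adjustment, and a call required an adjusted p under 0.05 and a fold change over 2. DESeq2 1.42.0, other filters and scalings, other references and fits without 1 library were alternatives. The code was tested on simulated data.

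Depth was 9259726 to 16604899 reads on genes per library. Without molecular identifiers, intervals and floors (3 reads) cover counting error only. With 2 libraries against 2, an exact two-sided permutation test cannot give a p below 0.333. The labels do not say that replicates were separate collections, so p-values measure only the spread between samples. That spread was estimated within the groups of all 25 libraries, not from the 4 compared libraries alone.

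Genes were named by rule: called genes, led by the 12 smallest adjusted p in each direction, called list members or else the 2 most abundant members, the deacetylases, Xist, Zscan4d, Obox3 and Cdkn1a, genes called in all 3 TSA comparisons, and the 5 nearest to each side of the threshold. Other list members given as examples were chosen after their values were seen. The comparison, lists and rule were chosen with earlier results of these data known. Same-numbered libraries did not deviate together (r = −0.14 for TSA alone), so no pairing was used.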

Additional observations from a re-analysis of the deposited data

Results flagged for a closer look

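The change with TSA differed with and without a G9a inhibitor for the following genes, by edgeR's test of the interaction (adjusted p under 0.05 and a difference over 2-fold). The libraries of TSA alone enter both the selection of these genes and the interaction, so a shift toward smaller changes in the other libraries is built into the choice. With RK-701, the log2 difference (TSA added to RK-701 minus TSA alone) was negative for A430060F13Rik (−1.60), Gm48582 (−9.87), Ebf2 (−4.42), Scn3a (−4.44), Abcg3 (−3.33), Sva (−3.89) and Inpp4b (−2.61), all of which rose with TSA alone. It was positive for Ppp1r42 (4.41), Cstb (2.49), Gm47864 (7.93), Cenpk (1.47), Tmx2 (1.74) and Gm10030 (5.61), which fell with TSA alone. Of these 13 genes, 9 had the opposite sign when TSA was added to RK-701.

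With A366, the difference was negative for 4930562F17Rik (−7.90), Slc30a1 (−2.58), Gm12619 (−1.50), A430060F13Rik (−1.65), Klhl11 (−1.50), Smad7 (−1.69), Gm13360 (−4.56), Gpat3 (−1.59), Sva (−4.67), Zfp553 (−1.38) and Glce (−1.45). It was positive for Gm47864 (6.85), Cenpk (2.36), Gm15286 (2.07), Tmx2 (1.62), Bbs7 (5.13), Triqk (1.36), Rbp7 (1.41), Lrrc28 (2.01), Dnajb13 (2.44), Eri2 (2.80) and Gm10030 (5.51). Of these 22 genes, 19 had the opposite sign when TSA was added to A366. The values of Gm48582, 4930562F17Rik and Gm47864 rest on groups with 0 reads, where a fitted difference depends on the prior count.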

How the results depend on the processing

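The count of genes called with TSA alone (84, of which 43 higher and 41 lower) was 407 with DESeq2 (141 higher, 266 lower), 418 without a filter on low counts (181 higher, 237 lower), 2 from the compared libraries alone, 42 with DESeq2 on these (13 higher, 29 lower), and 37 from the libraries made with latrunculin A. It was 533 against the cytochalasin B control and 429 against both controls. Leaving out 1 library gave 13 to 862. A replicate block gave 65, and the samples share only a number, whereas the crossed block, added after seeing the data because same-numbered libraries correlated at −0.14, gave 256. Adding TSA to RK-701 gave 2646 calls, 4015 with no minimum fold, and 1317 to 2628 with 1 library left out. For A366 these were 1231, 1879, and 367 to 872. Interaction calls with RK-701 (555) were 1028 with DESeq2 and 66 from the compared libraries alone, and those with A366 (475) were 1245 and 11. X-linked calls (9) were 23 with DESeq2 and 4 from the compared libraries. Called members of the hand-made lists (7) were 18 with DESeq2, 1 from the compared libraries and 22 against the cytochalasin B control. The share of called genes with the same sign under RK-701 (89.3%) was 78.6% to 100% with 1 library left out. Under A366 (72.6%) it was 85.7% with DESeq2 on the compared libraries, 61.3% with the crossed block, 58.3% against the cytochalasin B control and 37.1% to 85.7% with 1 library left out, and toward IVF (76.2%) it was 57.1% to 92.3%. The cause of these shifts was not tested. Among single genes, Sva turned to −0.71 against the cytochalasin B control. Without TSA replicate 2 the median of all genes moved by −0.10 on the log2 scale. Depth limits genes with few reads in either group.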
